A study of Mus musculus with 8 samples.

Results

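The natriuretic peptide genes (*Nppa*, *Nppb* and *Nppc*), the gene of the protease that activates the atrial peptide (*Corin*) and the receptor genes (*Npr1*, *Npr2* and *Npr3*) were examined in the H3K27Ac ChIP-Seq of *Arid1a cKO* hearts. A peak was given to the gene whose curated RefSeq transcription start lay nearest to the centre of the peak. By this rule 21 of the 45987 peaks belonged to 6 of these 7 genes, 10 of them to *Corin*, 3 each to *Nppb* and *Npr1*, 2 each to *Npr2* and *Npr3* and 1 to *Nppa*, while *Nppc* had 0. Chromatin was from ventricles at postnatal day 7 of 2 controls, Arid1a f/f, and of 2 *Arid1a cKO* littermates, aMHC-Cre;Arid1a f/f, on a C57B/6 J background. Both groups carried the floxed *Arid1a* alleles, and only the mutants carried the αMHC-Cre transgene, which is active in cardiomyocytes, so that *Arid1a* loss and the presence of Cre cannot be told apart. *Arid1a* encodes a DNA-binding member of the SWI/SNF nucleosome remodeller, and H3K27Ac is a histone mark of active promoters and enhancers. The value of a peak is the authors' mean of normalized reads over the 2 hearts of a group, on the log2 scale or as reads, and a difference is *Arid1a cKO* minus control in log2 means. The genes were chosen by their place in the natriuretic peptide system with the group means of these same peaks already known, so that their differences are a description. Beside columns of the authors' own comparison, which were not used, the table holds group means and no values of single hearts, so that the depth is unknown and no error or test is given.

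The heart secretes ANP (encoded by *Nppa*) and BNP (*Nppb*), which lower blood pressure and volume. Both are made in fetal ventricles, *Nppa* is largely switched off in ventricular cardiomyocytes after birth, and both return in stressed or hypertrophied ventricles. CORIN, a membrane protease of cardiomyocytes, cuts pro-ANP into its active form. ANP and BNP act through NPR1, a receptor that makes cGMP, CNP (*Nppc*) acts through its relative NPR2, and NPR3 removes all these peptides from the circulation.

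The sequences at which the results turn are the promoters of *Nppa*, *Nppb* and *Corin* and the centres of the *Corin* peaks with the largest differences. Promoters are the 250 bases before the start, in the direction of the gene, from the RefSeq table of GRCm38.p6, in which all 7 genes were found, the assembly that mm10 stands for (chr4:148000472-148000721 plus strand, chr4:147985650-147985899 plus strand and chr5:72504541-72504790 minus strand). The peak centres are 300 bases of the plus strand of the same assembly (chr5:72453691-72453990 and chr5:72404877-72405176), both in introns of *Corin*. Capitals mark matches, on either strand, to the motifs searched.
*Nppa* promoter: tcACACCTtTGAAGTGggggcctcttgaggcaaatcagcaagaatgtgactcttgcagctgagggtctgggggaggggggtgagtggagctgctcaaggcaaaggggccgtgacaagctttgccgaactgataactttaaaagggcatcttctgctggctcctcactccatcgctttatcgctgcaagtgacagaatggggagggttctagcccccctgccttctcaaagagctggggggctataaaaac
*Nppb* promoter: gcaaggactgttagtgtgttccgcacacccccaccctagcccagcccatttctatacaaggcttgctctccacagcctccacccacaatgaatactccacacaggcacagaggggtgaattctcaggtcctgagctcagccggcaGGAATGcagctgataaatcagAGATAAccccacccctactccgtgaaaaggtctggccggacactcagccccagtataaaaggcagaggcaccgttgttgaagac
*Corin* promoter: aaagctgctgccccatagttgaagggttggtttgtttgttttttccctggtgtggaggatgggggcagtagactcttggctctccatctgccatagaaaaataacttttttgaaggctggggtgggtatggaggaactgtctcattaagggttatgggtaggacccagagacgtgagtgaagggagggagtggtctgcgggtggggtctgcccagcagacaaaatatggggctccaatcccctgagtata
*Corin* +50.4 kb peak centre: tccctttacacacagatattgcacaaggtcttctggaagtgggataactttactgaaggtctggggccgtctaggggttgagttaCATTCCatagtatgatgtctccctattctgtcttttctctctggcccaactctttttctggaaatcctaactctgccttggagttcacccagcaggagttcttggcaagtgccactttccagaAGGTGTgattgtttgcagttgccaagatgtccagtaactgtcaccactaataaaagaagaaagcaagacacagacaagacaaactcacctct
*Corin* +99.2 kb peak centre: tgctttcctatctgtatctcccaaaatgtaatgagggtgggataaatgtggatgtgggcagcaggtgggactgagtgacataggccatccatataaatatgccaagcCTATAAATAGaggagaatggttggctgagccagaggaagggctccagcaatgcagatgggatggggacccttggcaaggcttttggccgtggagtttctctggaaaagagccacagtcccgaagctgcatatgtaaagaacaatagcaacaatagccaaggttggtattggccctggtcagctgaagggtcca

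The motifs searched were short cores of factors that act in heart muscle. TEAD factors, through which the coactivator YAP reaches the DNA, were represented by their core CATTCC. For the cardiac GATA factors the letters were AGATAA, with the strand open as for every motif. The homeodomain factor NKX2-5, which is active in all heart muscle, was searched as TNAAGTG, in which N is any base. T-box factors such as TBX5, also a regulator of cardiac genes, were searched as AGGTGT in the same way. The estrogen-related receptors (ERR), which drive genes of energy metabolism in mature heart muscle, had the site AAGGTCA. The AP-1 family, made of proteins of the early response to growth signals, was searched with the letters TGANTCA. The E-box that MYC proteins bind was given as its palindrome CACGTG, and MEF2 and the CArG box of serum response factor were searched by their consensus forms. No matches overlapped in the sequences printed. The *Nppb* promoter held a TEAD core 105 to 100 bases before the start, on the minus strand, and a GATA core 84 to 79 bases before it. The *Nppa* promoter held a TBX match at its far end, next to an NKX2-5 match. The *Corin* promoter held none of these motifs. It is that of 1 of the 2 curated *Corin* starts, and the distances of the *Corin* peaks run from the other. Of 32841 promoters in the table, 12.6% held TEAD, 9.99% GATA, 11.8% TBX and 10.1% NKX2-5. The *Corin* +50.4 kb centre held a TEAD and a TBX match, which 16.7% and 12.8% of all peak centres held. The *Corin* +99.2 kb centre held a MEF2 match, which lay in 1.63% of all peak centres and in 3.94% of the centres of peaks at least 2-fold lower in *Arid1a cKO*.

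H3K27Ac at *Nppa* was higher in *Arid1a cKO* than in control ventricles, and it was lower at every *Corin* peak. Of the 21 peaks, 5 were lower by at least 1 on the log2 scale, a 2-fold change, against 10.6% of all peaks placed on chromosomes, and all 5 were at *Corin*. With predicted transcripts included as well, 8 of the *Corin* peaks were nearer to a predicted snRNA inside *Corin*, and 1 lower member peak was left. By the curated starts another 4 of the 21 were higher by at least 1, against 4.57% of all placed peaks. These were at *Nppa*, *Nppb*, *Npr2* and *Npr3*. With predicted transcripts included, the *Npr2* and *Npr3* peaks among them were nearer to other genes. Just short of the limit of 1 lay the *Corin* +58.3 kb peak, with a difference of −0.99, and just inside it the *Npr2* −18.5 kb peak, with 1.07. The median difference was −0.16 over the 21 peaks, −1.42 over the *Corin* peaks and 0.28 over the other 11, and it was 0.01 over all placed peaks. The member median turned to 0.195 with predicted transcripts and was −0.405 over peaks of at least 16 reads. The plot of levels at the 21 peaks gives both group means for each.

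**Figure D1:**
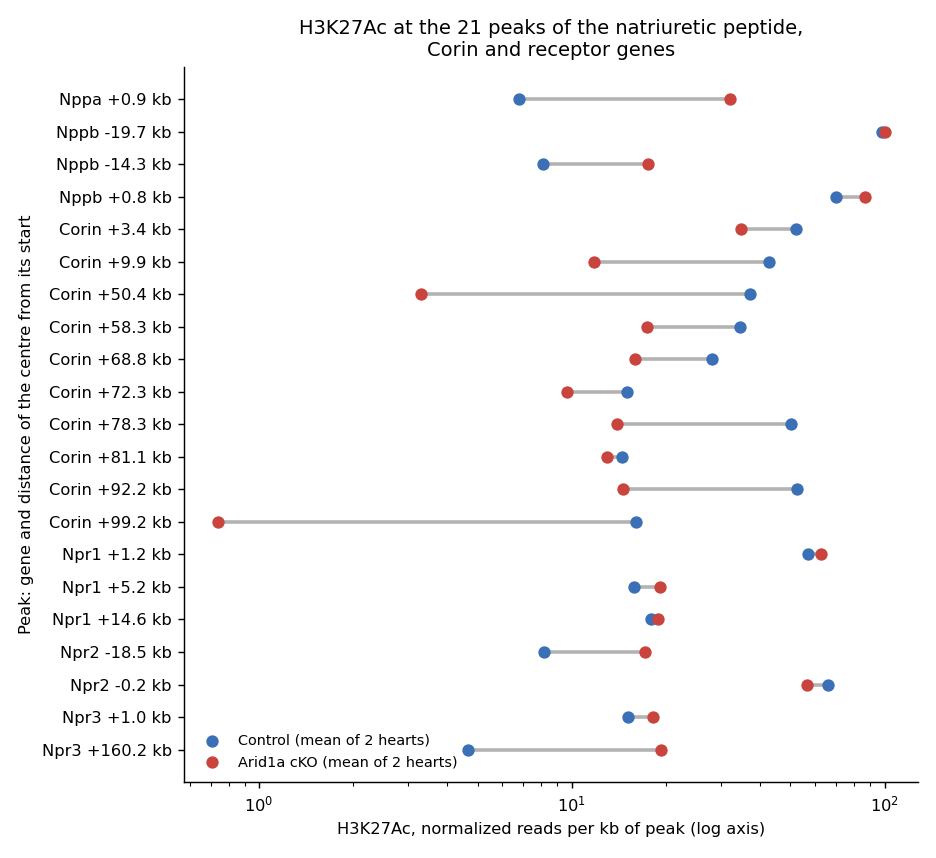
H3K27Ac at the 21 peaks of these genes, in normalized reads per kb of peak on a log axis. Each row is a peak, named by its gene and the distance of its centre from the start; blue points are control means and red points *Arid1a cKO* means of 2 hearts each, without error bars since single hearts are not in the table. All 10 *Corin* rows run to the left from control to *Arid1a cKO*, and the *Nppa* row runs to the right, from 6.76 to 31.9; the leftmost red point (*Corin* +99.2 kb) is a mean of 1.42 reads in the peak.

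*Nppa*, the ANP gene, lies on chromosome 4 (chr4:148000722-148002074, plus strand) and had a single peak, chr4:147998006-148005329. This peak of 7.32 kb covered the whole gene, with 2.72 kb before the start and 3.25 kb after the end, where 1071 bp of it lay in the neighbouring *Clcn6*, a chloride transporter gene on the opposite strand. The authors' mean was 49.5 reads among controls and 234 among mutants, a difference of 2.24, or 4.72-fold. Of all placed peaks 0.442% had a difference as high. Among the 12022 peaks of any strength that covered a curated start, 1.16% were higher by at least 1 and 15, with *Nppa* counted, were as high as *Nppa*. In controls the *Nppa* peak held 6.76 normalized reads per kb against a median of 62.3 over the peaks that covered a start, of which 0.324% were as low. Peaks were called in both groups, and the means do not tell which hearts set the presence and width of this one. A peak called only in mutants would have a low control density by that choice, so this rank is a description.

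Markers of other cells were read from the same table, since ventricles hold several cell types and more cells of a type cannot be told apart from more mark per cell. Of 7 atrial cardiomyocyte markers, 5 had peaks, and *Sln* and *Bmp10* had none. Their summed mean was 1164 reads in controls and 1145 in *Arid1a cKO*, with 4 of 25 peaks lower and 4 higher by at least 1, against 10.6% and 4.57% of all placed peaks. Most of these peaks and reads were at *Nr2f2*, with centres from −726.7 to 10.8 kb of its start. The sum thus mainly follows that gene, and it does not tell whether atrial signal as a whole was unchanged. *Myl7*, the atrial regulatory light chain gene, was the one with a peak over its start, and this weak peak stood at 2.45 reads in controls and 11.4 in *Arid1a cKO*, at least 3.80-fold higher against a floor of 3 reads. The other *Myl7* peak, 6.92 kb from the start, had 8.88 and 44.6 reads, 5.03-fold higher. The remaining higher atrial peaks were at *Nr2f2*. The 4 lower ones were at *Nr2f2*, with −2.13 as the lowest difference, and at *Dkk3* (−1.12). Fibroblast markers had peaks at all 7 genes, of which 9 of 49 were higher and 0 lower by at least 1 (4.57% and 10.6% of all placed peaks), with a summed mean of 3641 reads in controls and 4960 in *Arid1a cKO*. Cardiomyocyte markers, with peaks nearest to 6 of 7 genes (all but *Actc1*), summed to 13925 and 13101 reads. The *Arid1a cKO* sum was thus 94.08% of the control sum, and over all placed peaks it was 94.35%. The 28 cardiomyocyte marker peaks held 95.3 and 89.7 reads per kb, the highest density of the 6 marker lists. Most of these genes are active in all heart muscle, so that the list does not tell ventricle from atrium. Smooth muscle and pericyte markers (5 of 5 genes) summed to 2353 and 2502 reads, and macrophage markers (4 of 5) to 125 and 176. The part of other cells in the difference at *Nppa* was not tested.

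*Nppb*, the BNP gene (chr4:147985786-147987205, plus strand), starts 14.8 kb before *Nppa* in the same direction and had 3 peaks. The curated start of *Nppb* lies inside this span. The peak over its start, chr4:147984336-147989083, had a mean of 331 reads in controls and 410.1 in *Arid1a cKO*, a difference of 0.31. A broad peak of 8.76 kb, centred 19.7 kb before the start (chr4:147961799-147970559), was the densest of the 21 peaks, with 98.3 reads per kb in controls and 100.4 in *Arid1a cKO*, a difference of 0.03. Between them, 14.3 kb before the start, a peak of 570 bp had 4.59 and 9.99 reads, a difference of 1.12. At so few reads such a difference was common, since 12.6% of the 11495 placed peaks with the lowest overall means (18.1 reads or fewer) were higher by at least 1. The 2 strong *Nppb* peaks thus had differences of 0.31 and 0.03, and the adjoining *Nppa* peak 2.24.

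Within 100 kb of either start lay 15 peaks, the 4 of *Nppa* and *Nppb* and 11 nearest to neighbouring genes. The promoter peak of *Plod1*, a collagen lysyl hydroxylase gene, had 729 reads in controls and 760.1 in *Arid1a cKO*. The broad peak over *Mfn2*, which encodes a mitochondrial fusion protein, had 2257 and 2034 reads. Of the 11 neighbouring peaks 8 lay below 0 and 2 above, and none was higher by at least 1. The lowest was in an intron of *Agtrap*, the gene of an angiotensin II receptor-associated protein, with 64.4 reads in controls and 21.9 in *Arid1a cKO*, a difference of −1.56. The map of the peaks around *Nppa* shows these values by distance.

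**Figure D2:**
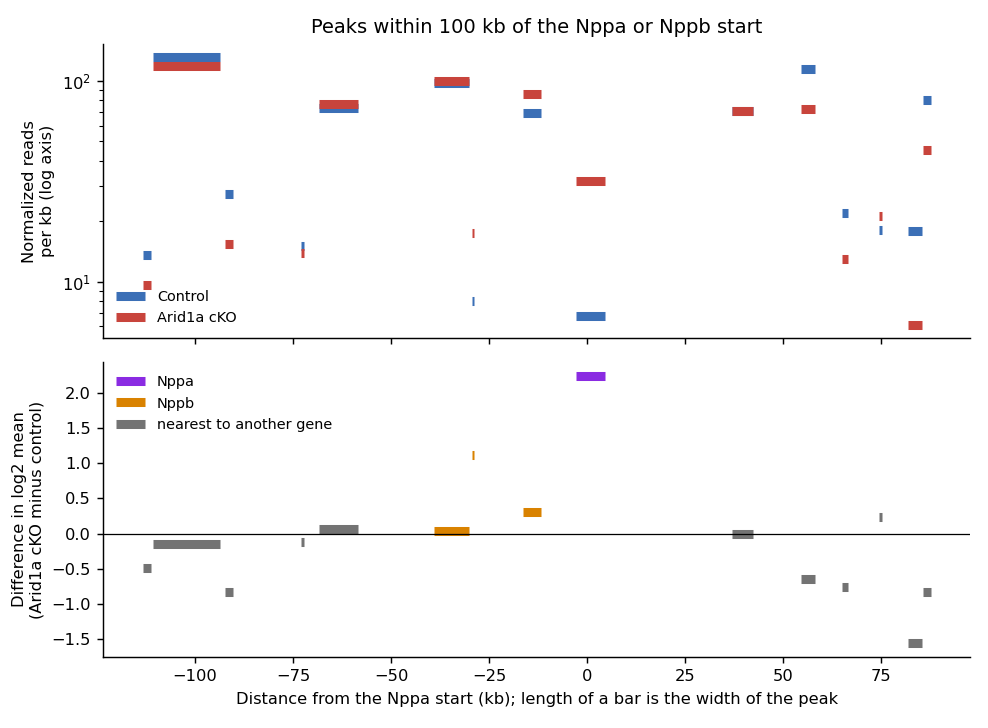
Peaks within 100 kb of the *Nppa* or *Nppb* start, by distance from the *Nppa* start in kb; each bar spans the width of its peak. The upper panel gives control (blue) and *Arid1a cKO* (red) means in normalized reads per kb on a log axis, where red hides blue if both are equal; the lower panel gives the difference in log2 means, which stands at 2.24 over *Nppa*, at 1.12 and less over *Nppb* and at 0.23 or lower over the neighbouring genes.

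*Nppc*, the CNP gene (chr1:86666293-86670573, minus strand), had no peak of its own. The peak closest to its start lay 33.3 kb away and nearer to *Dis3l2*, with 129 reads in controls and 118 in *Arid1a cKO*, and there were 3 peaks in all within 100 kb. The table lists only called peaks, so that low H3K27Ac at *Nppc* below the limit of calling would not be seen.

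*Corin* (chr5:72299948-72504540, minus strand) spans 205 kb and had 10 peaks, the first over its start and the other 9 at 9.90 to 99.2 kb inside the gene, between the first and the fifth intron. All 10 had a lower mean in *Arid1a cKO*. Added up, the means came to 1237 reads in controls and to 583, or 47.1%, in *Arid1a cKO*, against 94.35% over all placed peaks. For the peak over the start alone the share was 66.9%, and for the other 9 peaks together it was 35.2%. The single internal peaks varied, from −0.16 to −4.44, against −0.58 over the start. Both ends were weak peaks, and at the lowest the *Arid1a cKO* mean of 1.42 reads lay under a floor of 3 reads. Next lowest was the +50.4 kb peak, with −3.50.

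The peak over the *Corin* start, chr5:72496350-72505273, was the widest of the 21, at 8.92 kb. It had 465 reads in controls and 311 in *Arid1a cKO*, a difference of −0.58. The next peak, 9.90 kb inside the gene in the first intron (chr5:72493661-72494950), had 54.9 and 15.2 reads, a difference of −1.85. In its centre lay a TBX match and the ERR motif, which 7.05% of all peak centres held.

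The third intron held the +50.4 kb peak (chr5:72452547-72455134), whose central sequence is printed above, with 96.3 reads in controls and 8.51 in *Arid1a cKO*. Its difference of −3.50 was an 11.3-fold lower mean, and 1.03% of all placed peaks were as low. The adjoining +58.3 kb peak (chr5:72442330-72449441) was the second widest of *Corin*, at 7.11 kb, and had 246 and 124 reads, close to a 2-fold difference. These neighbours in 1 intron thus differed in how far their means lay apart.

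Toward the middle of the gene, the +68.8 kb peak, centred on the fourth exon, had 52.7 reads in controls and 29.9 in *Arid1a cKO*, a difference of −0.82. The weak +72.3 kb peak had 8.88 and 5.70 reads (−0.64) and the weak +81.1 kb peak 14.8 and 13.3 reads (−0.16), both in the fourth intron. Between them the +78.3 kb peak (chr5:72424588-72427306) had 136 and 37.8 reads, a difference of −1.85 or 3.61-fold. It thus stood apart from the weak peaks on either side of it.

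The fifth intron held the last pair. The +92.2 kb peak (chr5:72410725-72413236) had 132 reads in controls and 36.5 in *Arid1a cKO*, again a difference of −1.85. At the +99.2 kb peak (chr5:72404063-72405990), whose centre held the MEF2 match, the control mean was 30.9 reads and the *Arid1a cKO* mean 1.42. That mean is under a floor of 3 reads, against which the peak was at least 10.3-fold lower. With this peak set to its bound the *Corin* median was still −1.42.

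Among all placed peaks, 12.7% of intron peaks and 1.56% of promoter peaks were at least 2-fold lower in *Arid1a cKO*. By its centre the *Corin* peak over the start is an intron peak, and of all peaks that covered a curated start 1.70% were at least 2-fold lower. Of the 748 genes with 10 or more peaks, 25, with *Corin* among them, had as large a share of their peaks past that limit (5 of 10 for *Corin*), and the median share over these genes was 7.14%. The median difference was as low as that of *Corin* for 8 of them, *Corin* included. Among 2745 other genes with 5 or more peaks, those whose lowest, median and highest differences lay nearest to the values of *Corin* were *Sgcd*, *Mtr* and *Cdpf1*, at Euclidean distances of 0.239, 0.270 and 0.293 on the log2 scale. *Sgcd*, the delta-sarcoglycan gene, had 6 of 9 peaks lower by at least 1. The likeness rests on pooled means of 2 groups, and it takes no account of where in a gene the peaks lie. It also used the differences without the floor. The lowest *Corin* value was thus the −4.44 of the +99.2 kb peak, whose *Arid1a cKO* mean of 1.42 reads lay under that floor.

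**Figure D3:**
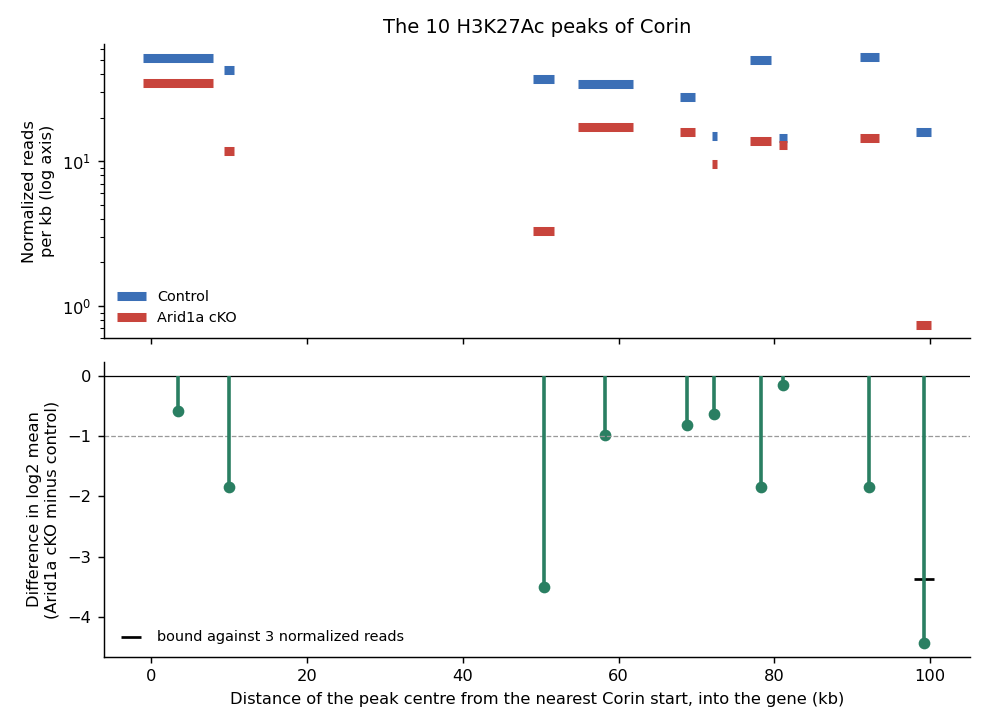
The 10 *Corin* peaks by distance of the peak centre from the nearest *Corin* start into the gene, in kb. In the upper panel bars span the width of each peak at its control (blue) and *Arid1a cKO* (red) mean, in normalized reads per kb on a log axis; in the lower panel stems give the difference in log2 means, a dashed line marks −1 and a black dash the bound against 3 reads. The difference runs from −0.16 at 81.1 kb to −4.44 at 99.2 kb, where the *Arid1a cKO* mean is under 3 reads, and is −0.58 over the start.

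The receptor genes had 7 peaks, whose summed means were 473 reads in controls and 510.1 in *Arid1a cKO*. *Npr1*, the receptor of ANP and BNP (chr3:90450591-90465928, minus strand), had 229 and 251 reads in the peak over its start, chr3:90462618-90466633, a difference of 0.13. Its peaks in the seventh intron and near the end of the gene had differences of 0.28 and 0.08. All 3 *Npr1* peaks thus lay slightly above 0.

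*Npr2*, the CNP receptor gene (chr4:43629015-43651437, plus strand), had 133 reads in controls and 113 in *Arid1a cKO* in its promoter peak, chr4:43630728-43632733, a difference of −0.23. The curated start of *Npr2* lies inside the gene span given here. A weak peak 18.5 kb before the start had 6.32 and 13.3 reads, a difference of 1.07. At *Npr3*, the clearance receptor gene (chr15:11839896-11907837, minus strand), the peak over 1 of its 2 curated starts, chr15:11903468-11905845, had 36.0 and 43.1 reads, a difference of 0.26. The other *Npr3* peak lay past the end of the gene, 160 kb from its start (chr15:11745063-11745942), with 4.08 reads in controls and 17.03 in *Arid1a cKO*, a difference of 2.06. Of the 11495 placed peaks with the lowest overall means 219 were as high. *Npr3* is known to be made by endocardial cells of the heart. Endocardial and endothelial markers, with peaks at 8 of 9 genes, had 2 of 54 peaks lower and 2 higher by at least 1 (10.6% and 4.57% of all placed peaks) and summed means of 11793 and 12068 reads, and their part in the *Npr3* values was not tested.

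The levels of the peaks over the starts were ordered per kb of peak. In controls *Nppb* was highest with 69.7 normalized reads per kb, followed by *Npr2* (66.1), *Npr1* (57.1), *Corin* (52.1), *Npr3* (15.1) and *Nppa* (6.76). In *Arid1a cKO* the order was *Nppb* (86.4), *Npr1* (62.4), *Npr2* (56.3), *Corin* (34.8), *Nppa* (31.9) and *Npr3* (18.1). *Nppa* was last in controls, over a width that the mutant hearts may have set, and close to *Corin* in *Arid1a cKO*. Whether neighbours in this order differ beyond the spread between hearts could not be judged from group means. The plot of the members among all peaks sets their differences against overall strength.

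**Figure D4:**
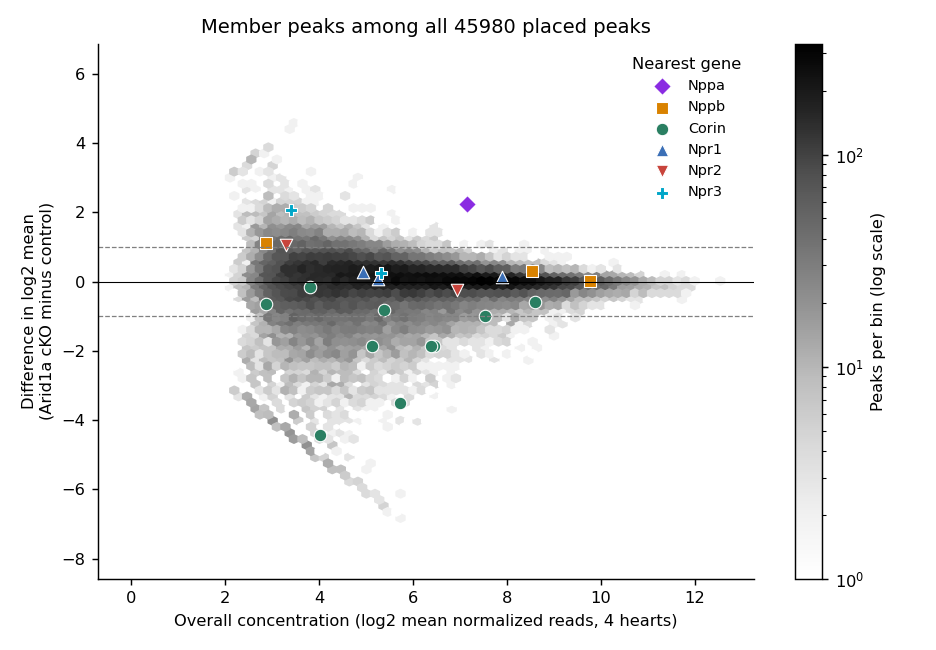
Difference in log2 means (*Arid1a cKO* minus control) against the overall concentration (log2 of the mean normalized reads of 4 hearts) for all placed peaks in grey bins, darker where more peaks lie on a log scale; coloured symbols are the 21 member peaks by nearest gene, and dashed lines mark 1 and −1. *Nppa* stands at 2.24 at an overall concentration of 7.15, to which its *Arid1a cKO* mean contributes, 5 *Corin* points lie under −1, and the other points above 1 (1.12, 1.07 and 2.06) sit at concentrations under 4, where the cloud is wide.

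The promoters differed in base composition, which the choice of genes did not use. *Nppa*, *Nppb* and *Corin*, the cardiomyocyte genes, held 4, 5 and 2 CpG dinucleotides in their 250 bases, at 54.4%, 54.8% and 51.2% G and C. *Npr1*, *Npr2* and *Nppc* held 21, 13 and 24 CpGs at 70.4%, 64.4% and 69.2% G and C. The median promoter of the table held 6 CpGs at 52.4%. The *Npr3* promoter in the table, that of the start outside the peak, had 6 CpGs at 38.8%, with a run of AAG repeats. The first set thus lay under the median number of CpGs, though *Nppa* and *Nppb* were close to it. As few CpGs were held by 44.4%, 49.6% and 29.0% of promoters, in the order *Nppa*, *Nppb* and *Corin*. *Nppc* and the guanylyl cyclase receptors lay above the median.

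Other genes that process these peptides or act in cGMP signalling were taken as a list of 21, of which 17 had peaks, 82 in all, and *Mme*, *Ostn*, *Prkg2* and *Trpc6* had none. Of these 82 peaks 4 (4.88%) were lower and 3 (3.66%) higher by at least 1, against 10.6% and 4.57% of all placed peaks, with a median difference of −0.01. The peaks past the limit were at *Furin*, *Ide*, *Rgs4* and *Irag1*, and all others lay within 1 of 0. *Furin* encodes a protease that cuts pro-BNP and pro-CNP and had 3 of its 7 peaks lower by at least 1, all before its start. The strong *Furin* peak, 40.1 kb before the start (chr7:80444080-80447073), had 186 reads in controls and 70.5 in *Arid1a cKO*, a difference of −1.40. Its 2 weaker peaks lay 46.7 and 37.7 kb before the start, with differences of −1.39 and, against the floor, at least 3.28-fold lower.

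*Pcsk6*, whose protease activates CORIN, had 6 peaks with differences between −0.40 and −0.07. *Ide*, a protease that can degrade natriuretic peptides, had 2 of 6 peaks higher by at least 1, both weak (8.88 and 26.5 reads, and 10.2 and 20.4 reads). *Irag1*, a substrate of the cGMP-dependent kinase and listed as *Mrvi1* in RefSeq, had 1 weak peak lower (−1.66), and *Rgs4*, a brake on G protein signalling, 1 weak peak higher (1.41). *Rgs2*, a further brake on G protein signalling that is named after its values were seen, had 5 peaks between −0.96 and 0.73 with a median of −0.73. The 3 soluble guanylyl cyclase genes and *Nos3*, of the nitric oxide branch, had 14 peaks between −0.83 and 0.43. The 5 phosphodiesterase genes, which break down cGMP, had 28 peaks between −0.85 and 0.64, and none of the 5 *Prkg1* peaks, at the gene of the main cGMP-dependent kinase, went beyond 0.34.

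The gene deleted in these mice was checked in the same way. The peak over the *Arid1a* start had a mean of 1607 reads in controls and 1663 in *Arid1a cKO* (0.05). H3K27Ac at a start does not report whether the floxed exons were removed, so this value checks no label.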

How the data were processed

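H3K27Ac ChIP and input libraries (8 in all) were made from ventricles of 2 controls and 2 *Arid1a cKO* mice. Per the study's methods, the authors aligned reads (BWA 0.7.17-r1188, mm10), used HOMER findPeaks in histone style with the pooled inputs as background, dropped peaks seen in a single sample, and compared groups in DiffBind 2.12.0 with DESeq2 1.24.0. The deposited table gives, per peak, log2 means of normalized reads over all samples and in each group. Its columns with the authors' own fold changes, p-values and FDR were not used. The table has 0 columns of single samples, so depth and errors are unknown and no test of its own was fitted. The library scaling and the treatment of input are not given in the sources used here. The lowest mean in the table, 0.946 reads, recurs at 324 peaks.

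Peaks were joined to 45756 curated RefSeq transcripts of GRCm38.p6; peak ends were checked against the lengths of 21 chromosomes, and 7 unplaced peaks were left out, leaving 45980. Promoter peaks were centred from 1000 bp before to 100 bp after a start. Distances and promoters rest on curated starts, and a gene span given here can begin before them, as at *Nppb* and *Npr2*. Means at or under 3 reads were a floor. The members and lists were chosen with earlier results of these data known. Named were all members, list genes with a peak past 1, peaks within 100 kb of *Nppa* or *Nppb* (1 neighbouring gene is not reported here), *Arid1a*, and the 3 genes most like a member with 5 or more peaks. The joining of peaks to their nearest start was tested on simulated data, and the other steps were not. Python 3.11.15, numpy 2.4.6, pandas 2.3.3 and matplotlib 3.10.9 were used.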

Additional observations from a re-analysis of the deposited data

How the results depend on the processing

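No paired analysis was possible because the table holds no values of single samples, and for the same reason no replicate could be left out and no interval given. A count was taken as moved beyond 1.5 times and a log2 value beyond 0.1, which happened in 37 of 180 recomputed values. A 1.5-fold limit gave 8 lower member peaks and 8 lower *Corin* peaks, 12 lower and 6 higher pathway peaks, and 5 lower peaks around *Nppa* and *Nppb*. A limit of 1.5 on the log2 scale left 2 higher member peaks, 1 higher near *Nppa*, and 2 lower and 1 higher in the pathway. With 8 reads added to each mean, *Nppa* stood at 2.07 and the *Corin* median at −1.19, with 2 higher member peaks, 1 higher near *Nppa*, and 1 lower and 1 higher in the pathway. Peaks with at least 16 reads gave a *Corin* median of −1.85 and 1 higher member peak, *Nppa*, with 1 higher around *Nppa* and 2 lower and 1 higher in the pathway. Assignment by gene body left 1 higher member peak and 1 higher pathway peak, and a 50 kb window around *Nppa* and *Nppb* 0 lower peaks. With predicted transcripts included, 8 *Corin* peaks, all still inside the gene, were nearer to *Gm23712*, a predicted snRNA inside *Corin*. That left 2 *Corin* peaks, a *Corin* median of −1.22, 1 lower member peak and 2 higher ones (*Nppa* and *Nppb*), and a member median of 0.195. Centring on the median of all or of promoter peaks moved none of the results.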

Other observations

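The centres of the *Corin* +58.3 kb and +78.3 kb peaks were rich in A and T, with 33.0% and 30.7% G and C over 300 bases, and 0.97% and 0.38% of all peak centres were as low. Neither held any of the motifs searched. Over all 21 member centres, TBX matched in 6 (12.8% of all centres held it), NKX2-5 in 4 (13.9%), TEAD in 3 (16.7%), GATA in 3 (13.4%) and CArG in 0 (1.54%). Of all peaks at least 2-fold lower in *Arid1a cKO*, 11.2% held ERR in their centre, against 7.05% of all peaks, and at *Corin* 1 of 10 centres held it. A peak centred 0.598 kb from an *Npr3* start was nearer to the start of *Gm5144* and so was no member. It had 13.6 reads in controls and 21.4 in *Arid1a cKO*, a difference of 0.65.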
